A study of Homo sapiens with 6 samples.

Results

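The subject is a set of 10 transcripts of the S100 family of calcium-binding proteins linked to invasion and metastasis, out of 20111 genes in the deposited table: S100A2, S100A3, S100A4, S100A6, S100A10, S100A11, S100A13, S100A14, S100A16 and S100P. They were taken by symbol, and all 10 were found. The RNA came from MDA-MB-231, an established human cell line of triple-negative breast cancer, a class of tumour that lacks the oestrogen and progesterone receptors and amplified HER2. Cells were transfected with an siRNA against SHC1 (siSHC1), an siRNA against NCOA3 (siNCOA3) or a control siRNA (siControl) and were collected 48 h or 24 h later. SHC1 is an adaptor that links receptor tyrosine kinases to RAS, and NCOA3 is a coactivator of nuclear receptors. There was 1 library for each siRNA and time, 6 in all, so the 2 times stand in as the replicates of an siRNA. Whether each library is a culture of its own is not stated, so part of the variation among the 6 libraries may be technical. The fit adds an siRNA effect and a time effect, and a p-value here gauges a difference against what they leave unexplained. An siRNA effect that differs between 48 h and 24 h is thus counted as error and cannot be told apart from noise. All groups share the cell line and the transfection, and the labels give neither the siRNA sequences nor whether an siRNA was a single one or a pool.

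S100 proteins are small proteins that carry a pair of EF-hand loops, the helix-loop-helix fold that holds calcium, and most act as dimers that change shape on binding it and then grip a target protein. They have no enzyme activity of their own. Inside the cell they bind cytoskeletal and membrane partners such as nonmuscle myosin and the annexins, and some are released and act on receptors such as RAGE (the product of AGER). S100A4 is widely used as a marker of invasive and mesenchymal cells.

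The genes of 9 members lie on chromosome 1 and that of S100P on chromosome 4. S100A10 and S100A11 are direct neighbours there, and a second run of adjacent protein-coding genes holds S100A6, S100A5 (not a member), S100A4, S100A3, S100A2, S100A16, S100A14 and S100A13, in that order. The promoter windows of the 4 members that passed the test in at least 1 comparison between siRNAs are shown. They are the annotated promoters of these genes, and which starts the cells used is not known from these data. They are RefSeq sequences of GRCh38.p14, 250 bases before to 50 after the annotated start, all on the minus strand, 5′ to 3′. The authors' processing notes name hg19, so the windows were matched by symbol only. Capitals mark matches, on either strand, to any of 4 motifs. The AP-1 site was searched as TGANTCA. The core of the hypoxia response element, where HIF binds, was searched as ACGTG. The TATA box was searched as TATAAA. The GC box, a binding site of SP1, was searched as GGGCGG, and matches were free to overlap.
S100A3, chr1:153549209-153549508: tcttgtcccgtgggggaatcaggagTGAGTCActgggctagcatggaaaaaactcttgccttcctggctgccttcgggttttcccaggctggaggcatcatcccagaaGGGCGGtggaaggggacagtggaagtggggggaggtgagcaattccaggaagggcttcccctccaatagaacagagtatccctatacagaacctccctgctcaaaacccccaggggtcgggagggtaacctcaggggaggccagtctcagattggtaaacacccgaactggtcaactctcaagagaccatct
S100A4, chr1:153545757-153546056: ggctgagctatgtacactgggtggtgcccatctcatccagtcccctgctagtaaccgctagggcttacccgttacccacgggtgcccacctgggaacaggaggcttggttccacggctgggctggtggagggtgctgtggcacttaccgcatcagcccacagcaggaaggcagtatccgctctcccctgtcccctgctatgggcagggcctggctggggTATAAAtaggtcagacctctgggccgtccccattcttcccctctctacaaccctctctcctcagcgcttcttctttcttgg
S100A6, chr1:153535942-153536241: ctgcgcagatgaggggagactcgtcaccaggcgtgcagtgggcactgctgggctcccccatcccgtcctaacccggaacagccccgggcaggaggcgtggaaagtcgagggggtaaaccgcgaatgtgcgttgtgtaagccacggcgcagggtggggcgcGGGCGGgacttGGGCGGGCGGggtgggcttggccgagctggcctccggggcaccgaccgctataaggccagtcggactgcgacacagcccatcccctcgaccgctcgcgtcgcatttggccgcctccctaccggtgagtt
S100A10, chr1:151993810-151994109: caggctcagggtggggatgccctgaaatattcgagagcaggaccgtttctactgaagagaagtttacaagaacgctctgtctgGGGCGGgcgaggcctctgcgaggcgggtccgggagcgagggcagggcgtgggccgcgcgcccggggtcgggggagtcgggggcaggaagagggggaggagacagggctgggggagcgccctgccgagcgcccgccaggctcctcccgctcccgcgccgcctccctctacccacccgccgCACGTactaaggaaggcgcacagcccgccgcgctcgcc
The S100A3 window holds 1 AP-1 match and 1 GC box, and the S100A4 window holds a TATA box whose first base lies at position -31 from the start. The S100A6 window holds 3 GC boxes, 2 of which overlap each other, and the S100A10 window holds 1 GC box and 1 ACGTG. The 10 members have 14 windows, since some have more than 1 annotated start. In at least 1 window of a gene, AP-1 letters were found for 2 of the 10 members, ACGTG for 2, the TATA box for 3 and the GC box for 6. Counted in the same way over 27305 genes of the RefSeq table, AP-1 letters were found for 9.37% of genes, ACGTG for 24.87%, the TATA box for 13.99% and the GC box for 48.30%. Members with 3 windows have more chances of a match than genes with 1. No motif was common to all 4 windows shown. A match is a string of letters and says nothing of a bound factor.

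The values are FPKM (fragments per kilobase of transcript and per M fragments), so levels can be compared roughly between genes. The members are short, with coding sequences of 273 to 318 bases, and how length was corrected for is not given. Their ranks among all genes and their share of all FPKM are therefore approximate. Total FPKM ran from 495518 to 553073 per library, and the lowest total was that of the siControl library of 24 h, which also had the smallest scaling factor (0.947, against 0.999 to 1.02 for the others). Counts of fragments are not in the table, so no counting interval is given. The targets matched the labels: NCOA3 stood at 16.3% (48 h) and 15.4% (24 h) of siControl after siNCOA3, and SHC1 at 13.3% (48 h) and 13.4% (24 h) after siSHC1. Of the markers of this line and of mesenchymal cells 8 of 8 (VIM, CD44 and others) were above 1 FPKM in every library, with a summed level of 2713 to 2967 FPKM, and 1 of them, EGFR, was lower after siSHC1 than after siControl (-0.62 ± 0.09, limma adjusted p = 0.0164). Of 6 hormone receptor and luminal markers 3 were above 1 FPKM in every library and 0 were called, PGR was listed at 0 throughout and ESR1 was at most 0.0922 FPKM. Markers of other cell types were low. The summed level of 4 leukocyte markers was 3.25 to 7.54 FPKM, nearly all of it CD14. That of 2 endothelial markers, CDH5 and VWF, was at most 0.0335 FPKM, and PECAM1, the other marker of that list, was not found by symbol. The summed level of 5 fibroblast markers was 3.66 to 10.1 FPKM with DCN at 0, but COL1A1 among them was higher after siSHC1, at 7.47 FPKM (48 h) and 6.78 FPKM (24 h), against 3.27 FPKM (48 h) and 2.16 FPKM (24 h) after siControl (limma adjusted p = 0.00776). Its part in the S100 results, and that of EGFR, was not tested. In bulk RNA fewer cells of a kind and less RNA per cell cannot be told apart.

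S100A6 (calcyclin), which binds the ubiquitin-ligase adaptor CACYBP, was the most abundant member and ranked 11 among all genes by mean FPKM. It stood at 3979 FPKM (48 h) and 3392 FPKM (24 h) after siSHC1, at 2978 FPKM (48 h) and 2900 FPKM (24 h) after siNCOA3, and at 3524 FPKM (48 h) and 2713 FPKM (24 h) after siControl. S100A4 (metastasin), which binds the heavy chain of nonmuscle myosin IIA and is the member best known for promoting metastasis in mouse models, ranked 26. Below it came S100A10, the partner of annexin A2 in a complex at the plasma membrane (mean 784 FPKM over the 6 libraries), and S100A11, a partner of annexin A1 (603 FPKM). S100A16, a broadly expressed member, averaged 209 FPKM, S100A2, a member known as a binding partner of p53, 114 FPKM, and S100A13, which takes part in the release of FGF1, 86.7 FPKM. S100A3, a cysteine-rich member best known from the hair cuticle, averaged 27.4 FPKM. Between neighbours in this order the ranges over the 6 libraries overlapped for S100A10 with S100A11 and for S100A2 with S100A13, and did not overlap elsewhere above S100A14. S100A14, an epithelial member, was at 0.0502 to 0.335 FPKM, and S100P, which binds ezrin and RAGE, was at 0 to 0.0910 FPKM, listed at 0 in the siSHC1 and siNCOA3 libraries of 48 h. Both are below the filter of 1 FPKM in at least 2 libraries, so 8 of the 10 members were tested, and each of those 8 exceeded 1 FPKM in all 6 libraries.

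**Figure D1:**
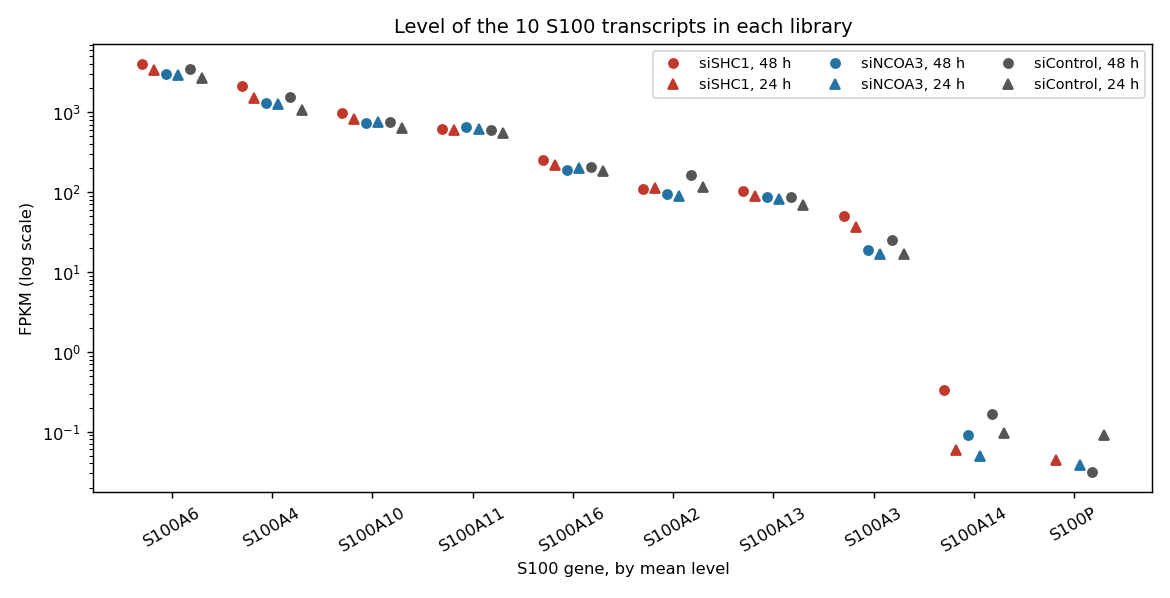
FPKM (log scale) of each S100 transcript in each library, with the genes ordered by their mean level, colours for the siRNA and circles for 48 h and triangles for 24 h; values of 0 (S100P, siSHC1 and siNCOA3 at 48 h) are not drawn. The transcripts span from 3979 FPKM of S100A6 to under 0.1 FPKM of S100P, and S100A3 is the tested member with the widest spread between libraries, 3.03-fold from the lowest to the highest.

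The 10 transcripts together held 1.48% (48 h) and 1.23% (24 h) of all FPKM after siSHC1, 1.12% (48 h) and 1.09% (24 h) after siNCOA3, and 1.28% (48 h) and 1.08% (24 h) after siControl. S100A6 made up 48.5% to 51.2% of that sum in every library. The share of S100A4 in the sum was 25.7% in the siSHC1 library of 48 h and 20.0% to 22.3% in the other libraries, and the share of S100A11 was 7.43% in that library and 8.60% to 10.7% in the others. The siSHC1 library of 48 h thus had the highest summed level, and the siControl library of 24 h the lowest.

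Set against siControl, siSHC1 shows which transcripts differ after the siRNA against SHC1. Loss of SHC1 and other effects of that siRNA cannot be told apart here, and the same holds for siNCOA3. S100A3 and S100A10 rose and no member fell. S100A3 stood at 50.3 FPKM (48 h) and 36.1 FPKM (24 h) after siSHC1, against 25.2 FPKM (48 h) and 16.9 FPKM (24 h) after siControl. Both siSHC1 libraries were above both siControl libraries. Here and below, how many of all tested genes separate in this way was not counted, and with 2 libraries for each siRNA such separation is weak evidence. After scaling, the S100A3 level after siSHC1 was 203% of siControl at 48 h and 200.3% at 24 h. The fitted rise, in log2 units after a pseudocount of 1, was 0.98 ± 0.10 (SE, 2 libraries for each siRNA; adjusted p = 0.00616, limma). S100A10, whose own EF-hands have lost calcium binding and which is held in place by annexin A2, stood at 992 FPKM (48 h) and 829 FPKM (24 h) after siSHC1, against 751 FPKM (48 h) and 634 FPKM (24 h) after siControl. The groups did not overlap, and the rise was 0.36 ± 0.07 (SE, 2 libraries for each siRNA; limma adjusted p = 0.0416), a 1.28-fold difference.

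S100A4 stood at 2111 FPKM (48 h) and 1507 FPKM (24 h) after siSHC1, against 1534 FPKM (48 h) and 1067 FPKM (24 h) after siControl. The siControl library of 48 h was higher than the siSHC1 library of 24 h, so that the groups overlapped across times, while within each time siSHC1 was higher. Its difference of 0.44 ± 0.10 did not pass (limma adjusted p = 0.0565). S100A13 stood at 104 FPKM (48 h) and 89.2 FPKM (24 h) after siSHC1, at 87.7 FPKM (48 h) and 83.1 FPKM (24 h) after siNCOA3, and at 87.4 FPKM (48 h) and 68.3 FPKM (24 h) after siControl. S100A16 stood at 250.3 FPKM (48 h) and 222 FPKM (24 h) after siSHC1, at 190.0 FPKM (48 h) and 198 FPKM (24 h) after siNCOA3, and at 208 FPKM (48 h) and 185 FPKM (24 h) after siControl. For both, each siSHC1 library was above the other 4 libraries, though for S100A13 only narrowly (89.2 against 87.7 FPKM). S100A13 had a fitted difference of 0.28 ± 0.08 between siSHC1 and siControl (limma adjusted p = 0.0813), S100A16 0.23 ± 0.08 (limma adjusted p = 0.123) and S100A6 0.21 ± 0.06 (limma adjusted p = 0.0955). Each of these 3 was higher after siSHC1 at both times, and none passed. S100A11, the chromosomal neighbour of S100A10, stood at 610 FPKM (48 h) and 608 FPKM (24 h) after siSHC1, against 592 FPKM (48 h) and 542 FPKM (24 h) after siControl, with a difference of 0.07 ± 0.06 (limma adjusted p = 0.479). After scaling the ratio was 1.05 at each time, and S100A11 has processed pseudogenes with which it may share reads. S100A2 had a negative difference of -0.34 ± 0.11 (limma adjusted p = 0.113).

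In all, 2 of the 10 members were called, both higher, of 8 tested, where 6.42% of all 11690 tested genes were called, 3.11% higher and 3.32% lower. The tested members had a median difference of 0.25 with 7 above 0, against a median of 0.0035 over all tested genes, of which 50.7% were above 0. Over all genes 363 were higher and 388 lower, and with equal library totals 209 higher and 497 lower; S100A3 stayed called under that scaling and S100A10 did not (limma adjusted p = 0.0639). S100A3 lost its call without the time term (limma adjusted p = 0.069), without a filter on low values (0.0969) and without the siControl library of 24 h (0.0552), and S100A10 lost it without the time term (0.114), without a filter on low values (0.144), without trend and robust moderation (0.114), without either siControl library (0.212 for 24 h, 0.193 for 48 h) or with siSHC1 of 48 h left out (0.240). S100A4 passed without the siSHC1 library of 24 h (limma adjusted p = 0.0472) and, together with S100A6, without either siNCOA3 library, which are in the fit but not in the contrast. For S100A4 the adjusted p was 0.00886 without that of 24 h and 0.00619 without that of 48 h, and for S100A6 it was 0.0260 and 0.0212.

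**Figure D2:**
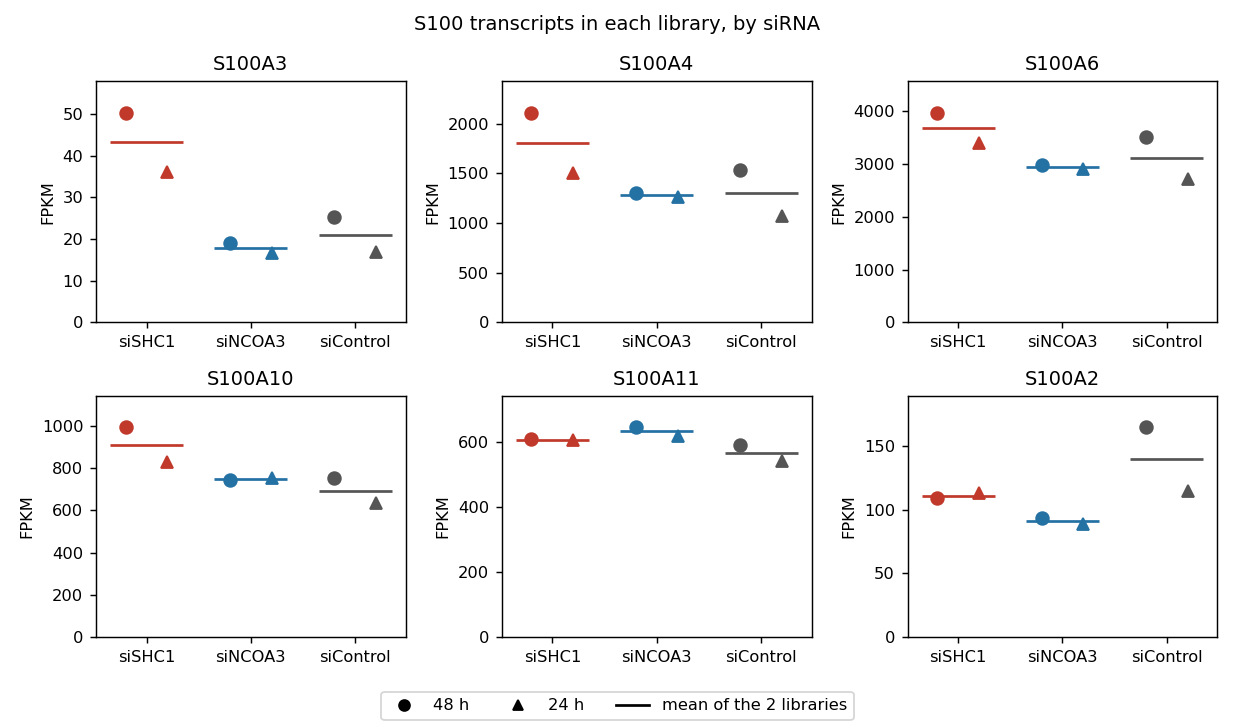
FPKM of 6 S100 transcripts in each library, with the siRNA on the horizontal axis, circles for 48 h, triangles for 24 h and a line at the mean of the 2 libraries of an siRNA; each axis starts at 0. For S100A3 and S100A10 both siSHC1 libraries lie above all 4 other libraries, and S100A11 differs little between siRNAs. For S100A2 both siControl libraries lie above the siSHC1 and siNCOA3 libraries. Against siSHC1 this is narrow, with 115 FPKM in siControl of 24 h and 113 FPKM in siSHC1 of 24 h. How many other genes separate in these ways was not counted.

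The direct comparison of siSHC1 with siNCOA3 uses the same siSHC1 libraries. S100A3, S100A4 and S100A6 were higher after siSHC1. S100A3 had 50.3 FPKM (48 h) and 36.1 FPKM (24 h) after siSHC1, against 19.1 FPKM (48 h) and 16.6 FPKM (24 h) after siNCOA3, a difference of 1.23 ± 0.10 (SE, 2 libraries for each siRNA; limma adjusted p = 0.00232) or 2.34-fold. S100A4 had 2111 FPKM (48 h) and 1507 FPKM (24 h) after siSHC1, against 1299 FPKM (48 h) and 1259 FPKM (24 h) after siNCOA3, with no overlap and a difference of 0.49 ± 0.10 (limma adjusted p = 0.0349). After scaling its ratio was 1.64 at 48 h and 1.21 at 24 h. S100A6 had 3979 FPKM (48 h) and 3392 FPKM (24 h) after siSHC1, against 2978 FPKM (48 h) and 2900 FPKM (24 h) after siNCOA3, a difference of 0.34 ± 0.06 (limma adjusted p = 0.0254). S100A10 at 0.29 ± 0.07 (limma adjusted p = 0.0534) and S100A16 at 0.29 ± 0.08 (limma adjusted p = 0.0568) lay just outside the threshold. S100A2 had 0.30 ± 0.11 (limma adjusted p = 0.130), S100A13 0.19 ± 0.08 (limma adjusted p = 0.161) and S100A11 -0.04 ± 0.06 (limma adjusted p = 0.650), and these 3 did not pass.

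The 3 members called, all higher, compare with 9.74% of all tested genes called in either direction, 5.35% higher and 4.4% lower. Over all genes 625 were higher and 514 lower, which became 510 and 647 with equal library totals. The median of the 8 tested members was 0.30, against 0.0031 over all genes. S100A3 kept its call without each library in turn and lost it without a filter on low values (limma adjusted p = 0.057). Neither S100A4 nor S100A6 passed with unscaled values (limma adjusted p = 0.0541 and 0.0633) or with low genes kept in (0.137 and 0.112). Nor did they pass without trend and robust moderation (limma adjusted p = 0.0827 and 0.101) or without the time term (0.17 and 0.134). With both siControl libraries left out they did not pass either (limma adjusted p = 0.06 and 0.057). S100A4 lost its call without either siControl library (limma adjusted p = 0.0576 for 24 h and 0.0566 for 48 h), with siNCOA3 of 48 h left out (0.0615) and with siSHC1 of 48 h left out (0.189). S100A6 lost it without the siControl library of 24 h (limma adjusted p = 0.0527), the siNCOA3 library of 48 h (0.0609) or the siSHC1 library of 48 h (0.145). S100A10 passed without the siNCOA3 library of 24 h (limma adjusted p = 0.0346) or the siSHC1 library of 24 h (0.0415).

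Set against siControl, siNCOA3 shows which transcripts differ after the siRNA against NCOA3, and no member passed the test. S100A2 had the difference of the greatest size: it stood at 93.5 FPKM (48 h) and 88.5 FPKM (24 h) after siNCOA3, against 165 FPKM (48 h) and 115 FPKM (24 h) after siControl. Both siNCOA3 libraries were below both siControl libraries, and after scaling they held 57.3% of the siControl level at 48 h and 71.3% at 24 h. The difference of -0.64 ± 0.11 on the log2 scale did not pass over all genes (limma adjusted p = 0.171). It passed when the siSHC1 library of 24 h was left out (limma adjusted p = 0.0418), and over its 14 alternatives the adjusted p ran from 0.0418 to 0.558. The siSHC1 libraries also held less S100A2 than siControl, at 109 FPKM (48 h) and 113 FPKM (24 h), but both comparisons share the 2 siControl libraries.

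The other members differed less between siNCOA3 and siControl. S100A3 had -0.25 ± 0.10 (limma adjusted p = 0.462), S100A6 -0.12 ± 0.06, S100A16 -0.07 ± 0.08 and S100A4 -0.05 ± 0.10. S100A11 had 0.11 ± 0.06, S100A13 0.09 ± 0.08 and S100A10 0.07 ± 0.07. Of these 7 the smallest adjusted p was that of S100A3. Of the 10 members 0 were called by limma, and 2 of the 8 tested, S100A2 and S100A3, had an unadjusted p under 0.05. Of all 11690 tested genes 0.111% were called and 1226 had an unadjusted p under 0.05. The median of the 8 tested members was -0.059 with 3 above 0, against -0.00064 over all tested genes. For S100A4 the 2 times pointed in opposite directions, with 1299 FPKM (48 h) and 1259 FPKM (24 h) after siNCOA3, against 1534 FPKM (48 h) and 1067 FPKM (24 h) after siControl. The siNCOA3 libraries of S100A4 thus lay between the siControl libraries.

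The comparison of 48 h with 24 h asks what changes with time after transfection. The fitted differences of all 8 tested members were above 0, and none was called by limma, while 4 had an unadjusted p under 0.05. Of all 11690 tested genes 0.0257% were called, 0.0171% higher and 0.00855% lower, and 1660 had an unadjusted p under 0.05. S100A3 had 0.38 ± 0.08 (SE, n = 3 libraries per time, limma adjusted p = 0.281), S100A4 0.33 ± 0.08 (limma adjusted p = 0.281), S100A13 0.20 ± 0.06 (limma adjusted p = 0.296) and S100A6 0.19 ± 0.05 (limma adjusted p = 0.281). S100A2 had 0.16 ± 0.09, S100A10 0.14 ± 0.06, S100A16 0.07 ± 0.06 and S100A11 0.04 ± 0.05. The median of the 8 was 0.18, against 0.0072 over all tested genes, of which 52.2% were above 0. Within one siRNA the ratio of 48 h to 24 h for S100A4 was 1.42 after siSHC1, 1.05 after siNCOA3 and 1.34 after siControl. For S100A3 it was 1.41 after siSHC1, 1.17 after siNCOA3 and 1.39 after siControl, and for S100A6 1.19 after siSHC1, 1.04 after siNCOA3 and 1.21 after siControl. The siNCOA3 pair had the smallest ratio for 6 of the 8 tested members. For S100A2 it was the siSHC1 pair and for S100A11 the siControl pair, and the siNCOA3 pair of S100A11 had the largest. This tally was not made over all tested genes, and several members vary together over the libraries, so it does not set the family apart. With 1 library per siRNA and time, a difference in the time course between siRNAs could not be tested. Without the siNCOA3 library of 24 h S100A4 passed (limma adjusted p = 0.0403), and without that of 48 h S100A4 and S100A6 passed (0.0286 and 0.0399).

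Along chromosome 1, the fitted differences between siSHC1 and siControl of 5 of the 6 tested members of the second run were above 0, and that of S100A2 was below 0. Differences between genes were not tested. S100A5, which lies between S100A6 and S100A4, overlaps the annotated S100A4 gene on the same strand, so that reads may be shared and its value is uncertain. It stood at 25.0 FPKM (48 h) and 18.8 FPKM (24 h) after siSHC1, at 9.02 FPKM (48 h) and 7.22 FPKM (24 h) after siNCOA3, and at 13.3 FPKM (48 h) and 10.4 FPKM (24 h) after siControl. S100A5 rose after siSHC1 by 0.80 ± 0.10 against siControl (limma adjusted p = 0.0105) and was higher by 1.34 ± 0.10 against siNCOA3 (limma adjusted p = 0.00161), while siNCOA3 against siControl gave -0.54 ± 0.10 (limma adjusted p = 0.187). The next gene after S100A3 is S100A2, whose difference between siSHC1 and siControl was -0.34, and S100A16 beyond it had 0.23. S100A13 overlaps S100A1 and CHTOP in the annotation, and whether the authors' quantification used strand is not given in the sources used here, so its value too may hold other reads. By the same annotation S100A3 and S100A4 overlap LOC101928034, and S100A6 overlaps LOC124904423, so their values may hold other reads as well.

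**Figure D3:**
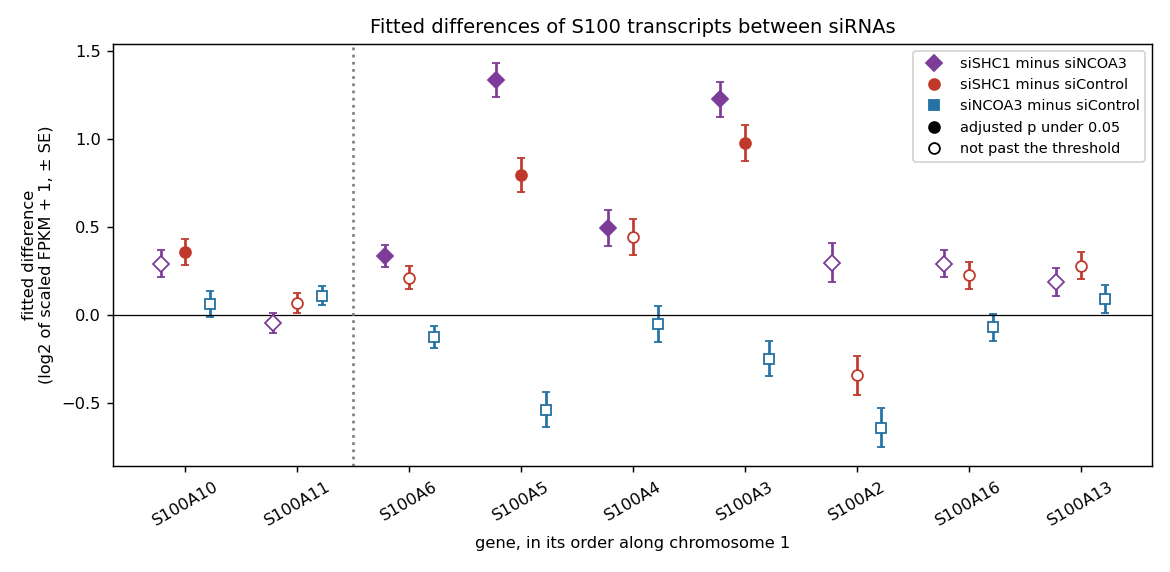
Fitted differences (log2 of scaled FPKM + 1, limma, with SE bars) of the 8 tested members and S100A5, in their order along chromosome 1, for siSHC1 minus siNCOA3 (diamonds), siSHC1 minus siControl (circles) and siNCOA3 minus siControl (squares); filled symbols passed an adjusted p of 0.05, the dotted line parts the S100A10 and S100A11 pair from the second run, and S100A14 was not tested. S100A5 and S100A3 have the largest differences between siSHC1 and siControl, 0.80 and 0.98, S100A11 lies near 0 throughout, and S100A2 lies below 0 after both siRNAs against siControl.

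The lists of related genes were compared in the same fit, where 6.42% of all tested genes were called between siSHC1 and siControl, 3.11% higher and 3.32% lower, 9.74% between siSHC1 and siNCOA3, and 0.111% between siNCOA3 and siControl. With lists this short, counts of 0 or 1 are near those shares and set no list apart. Of 11 other genes of the S100 name, 7 (S100A7, S100A7A, S100A8, S100A9, S100A12, S100B and S100G) were listed at 0 in every library, S100A1 and S100Z were below the filter, and S100PBP, which encodes a nuclear protein that binds S100P, did not differ past the threshold in any comparison. Of 12 annexins 9 were tested and 0 were called against siControl for either siRNA. ANXA2, the partner of S100A10, stood at 969 FPKM (48 h) and 841 FPKM (24 h) after siSHC1, at 822 FPKM (48 h) and 842 FPKM (24 h) after siNCOA3, and at 805 FPKM (48 h) and 707 FPKM (24 h) after siControl, with a difference of 0.22 ± 0.07 between siSHC1 and siControl (limma adjusted p = 0.103). ANXA5 and ANXA1, the next by level, had 0.17 and 0.17 in that comparison and did not pass. The median of the 9 annexins was 0.17 for siSHC1 with 7 above 0, and -0.043 for siNCOA3. ANXA8 was higher after siSHC1 than after siNCOA3, by 0.57 ± 0.13 (limma adjusted p = 0.0406).

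Of the 21 genes of S100 binding partners, all tested, 1 fell after siSHC1 and 0 rose, near the 3.32% called lower over all genes, with a median of -0.028. The one that fell was PPFIBP1 (liprin beta 1), a target of S100A4, at 17.1 FPKM (48 h) and 19.7 FPKM (24 h) after siSHC1, against 23.4 FPKM (48 h) and 25.0 FPKM (24 h) after siControl, a change of -0.42 ± 0.09 (limma adjusted p = 0.0416). MYH9, the nonmuscle myosin IIA heavy chain that S100A4 binds, had 435 FPKM (48 h) and 406 FPKM (24 h) after siSHC1, against 363 FPKM (48 h) and 327 FPKM (24 h) after siControl, a difference of 0.25 ± 0.06 that did not pass (limma adjusted p = 0.0658). CACYBP, the partner of S100A6, had -0.11 ± 0.12 and AHNAK, a large scaffold bound by the S100A10 and annexin A2 complex, 0.23 ± 0.07, and neither passed. The most abundant genes of the list, ACTB, ACTG1 and NCL, had -0.09, 0.21 and -0.04 and did not pass. After siNCOA3 0 of the 21 were called against siControl.

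Of 8 genes on the list of receptors and surface partners 6 were tested. SDC1 (syndecan 1, a heparan sulphate proteoglycan) fell after siSHC1, to 25.5 FPKM (48 h) and 30.7 FPKM (24 h), against 42.6 FPKM (48 h) and 43.3 FPKM (24 h) after siControl, a change of -0.63 ± 0.08 (limma adjusted p = 0.0127). AGER, which encodes RAGE, was at 1.34 FPKM (48 h) and 1.65 FPKM (24 h) after siSHC1, at 0.976 FPKM (48 h) and 1.42 FPKM (24 h) after siNCOA3, and at 1.23 FPKM (48 h) and 0.795 FPKM (24 h) after siControl, and TLR4 was at 6.32 to 7.37 FPKM, and neither passed in any comparison. BSG, ALCAM and NPTN, the most abundant of the list, had 0.16, 0.03 and 0.22 between siSHC1 and siControl and did not pass. Between siSHC1 and siNCOA3, NPTN was higher by 0.35 ± 0.08 (limma adjusted p = 0.0383) and SDC1 had -0.66 ± 0.08 (limma adjusted p = 0.00793). Of the 9 genes of the plasminogen system, to which S100A10 is tied as a surface docking site, 7 were tested and 0 were called in any of the 4 comparisons. ENO1 and PLAU, abundant members of the list, had 0.24 and 0.08 between siSHC1 and siControl. Of 32 other EF-hand proteins 30 were tested. Between siSHC1 and siControl 1 fell and 0 rose, again near the 3.32% called lower over all genes, with a median of 0.029, and the one that fell was ACTN1 (alpha-actinin 1), at 143 FPKM (48 h) and 141 FPKM (24 h) after siSHC1, against 266 FPKM (48 h) and 266 FPKM (24 h) after siControl, a change of -0.93 ± 0.07 (limma adjusted p = 0.00197). CAPNS1, CALM2 and ACTN4, the most abundant of these, had 0.14, 0.13 and 0.02 and did not pass. Between siSHC1 and siNCOA3, NUCB2 was higher by 0.50 ± 0.09 (limma adjusted p = 0.0219) and ACTN1 had -0.86 ± 0.07 (limma adjusted p = 0.00215).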

How the data were processed

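RNA-seq libraries were made from MDA-MB-231 cells after siSHC1, siNCOA3 or siControl, at 48 h and 24 h, with 1 library each. Per the labels' protocols the RNA was a Trizol extract and the kit was a stranded one for mRNA. The submitters' processing notes name STAR, Cufflinks, DESeq2 and hg19, without roles or versions. The values the authors deposited are FPKM, although the table is named for read counts. The sources used here give neither its annotation nor its filters nor its use of strand.

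FPKM were scaled by the median of ratios over 11042 genes at 1 FPKM or more in all 6 libraries. Genes with at least 1 scaled FPKM in at least 2 libraries (11690) went, as log2 of scaled FPKM with a pseudocount of 1, into limma 3.58.1 (R 4.3.3; trend and robust moderation). Additive terms for siRNA and time left 2 residual degrees of freedom. P-values were adjusted by Benjamini-Hochberg over all tested genes within a comparison, with a threshold of 0.05. Fold changes on this scale understate those of low genes. All 6 sample columns were used.

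The members, lists and alternatives were chosen with earlier results of these data known. Named are all 10 members and, of each list (93 symbols, all matched), the called genes discussed and the 3 of highest mean FPKM; further partners named by their role were picked after their values were seen. Some items that this rule names are not reported here. Promoters (RefSeq) were searched in Python 3.11.15 with pandas 2.3.3, and plots drawn with matplotlib 3.10.9.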

Additional observations from a re-analysis of the deposited data

Results flagged for a closer look

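Among the 8 tested members, 4 had differences of opposite sign, either between siNCOA3 and siControl at the 2 times or between the times after an siRNA and after siControl. With 1 library per siRNA and time none of these differences was tested. Such changes of sign were not counted over all tested genes, so the count does not set the members apart. Those of S100A2, S100A10 and S100A16 each rest on at least 1 value near 0. The log2 difference of S100A4 between siNCOA3 and siControl was -0.23 at 48 h and 0.13 at 24 h, a gap of -0.353. For S100A10 it was -0.0024 at 48 h and 0.13 at 24 h, a gap of -0.135. The log2 difference of S100A2 between 48 h and 24 h was -0.031 after siSHC1 and 0.41 after siControl, a gap of -0.444. That of S100A16 was -0.037 after siNCOA3 and 0.066 after siControl, a gap of -0.103.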

How the results depend on the processing

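The number of members called between siSHC1 and siControl, 2 as reported, was 1 with equal library totals or without trend and robust moderation, 4 with only the libraries of the 2 siRNAs compared, and 0 without a filter on low values. Between siSHC1 and siNCOA3 it was 3 as reported, 1 without scaling, without that moderation or with only those 2 siRNAs, and 0 without a filter. Without the time term, that is with no replicate block, it was 0 and 1 in these comparisons. Leaving out 1 library at a time gave 0 to 4 members for siSHC1 with siControl, 1 to 4 for siSHC1 with siNCOA3, 0 to 1 for siNCOA3 with siControl and 0 to 2 for time. The cause of these shifts was not tested. Over all genes the calls ran from 2 to 867 for siSHC1 with siControl (751 as reported), 4 to 1250 for siSHC1 with siNCOA3 (1139), 0 to 38 for siNCOA3 with siControl (13) and 0 to 64 for time (3). Signs turned in 4 cases, all between siNCOA3 and siControl and none called: S100A4 (-0.25 to 0.15 with 1 library left out) became 0.018 without siControl of 48 h and 0.15 without siNCOA3 of 48 h, S100A10 (-0.039 to 0.17) -0.039 without siNCOA3 of 24 h, and S100A16 (-0.15 to 0.017) 0.017 without siNCOA3 of 48 h. No paired analysis beyond the time term was possible, because there was 1 library for each siRNA and time. The depth in fragments is unknown, which leaves S100A14 and S100P without a detection limit.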

Other observations

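S100A14 and the epithelial cadherin gene CDH1, both under the filter, had their highest values in the siSHC1 library of 48 h. S100A14 was at 0.335 FPKM (48 h) and 0.0584 FPKM (24 h) after siSHC1, at 0.0916 FPKM (48 h) and 0.0502 FPKM (24 h) after siNCOA3, and at 0.166 FPKM (48 h) and 0.0964 FPKM (24 h) after siControl. CDH1 was at 0.572 FPKM (48 h) and 0.181 FPKM (24 h) after siSHC1, at 0.0239 FPKM (48 h) and 0.0691 FPKM (24 h) after siNCOA3, and at 0.128 FPKM (48 h) and 0.0207 FPKM (24 h) after siControl. EPCAM was at 10.7 FPKM in that siSHC1 library of 48 h and at 6.65 to 7.81 FPKM in the other 5 libraries. The other expressed genes of the same list of luminal markers were not highest in that library: ERBB2 was at 31.1 FPKM (48 h) and 26.9 FPKM (24 h) after siSHC1, against 35.5 FPKM (48 h) and 27.4 FPKM (24 h) after siControl, and GATA3 was at 4.99 FPKM (48 h) and 4.67 FPKM (24 h) after siSHC1, against 5.56 FPKM (48 h) and 5.07 FPKM (24 h) after siControl. The values of CDH1, EPCAM and S100A14 rest on 1 library and were picked out after they were seen.

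Across the 6 libraries, which share siRNAs and times, the tested members fell into unlike patterns on the log2 scale. S100A4 was most like S100A6, S100A3 most like S100A16, S100A10 most like S100A4 and S100A13 most like S100A10 by Pearson's r. The highest r of S100A2 with another member was 0.413 and that of S100A11 was 0.485, against 0.942 to 0.971 for the other 6 members.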
